A study of Mus musculus with 20 samples.

Results

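Newborn lenses that lack E2F1, E2F2 and E2F3 were compared with control lenses at a late embryonic stage, E17.5. The comparison took 10 of the 20 arrays of the series, chosen by title. On one side were 5 arrays of Cry-Cre E2F1-/- E2F2-/- E2F3f/f mice at birth (P0), called knockout P0 here. On the other were 5 arrays of E2F2-/- mice at E17.5, called control E17.5. Every lens of both groups therefore lacked E2F2. The knockout lenses also carried E2F1 null alleles, a floxed E2F3 gene and a Cre transgene driven by a crystallin promoter, and the transgene was absent from the controls. A sample was the pair of lenses of 1 mouse from a timed pregnancy, and litter, sex and strain background are not in the labels. Genotype and stage differ together between these groups. Their difference is the sum of the change that control lenses make from E17.5 to birth and the genotype difference at birth. The question it addresses is whether the newborn knockout lens has the expression of a younger lens, as a delay would leave it, or expression found at neither control stage. The 5 control P0 arrays, also E2F2-/-, and the 5 knockout E17.5 arrays of the same series are given beside it where they place a value. The series was designed to follow events before the collapse of lenses that lack the 3 factors.

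E2F proteins are transcription factors that switch on genes of DNA replication and cell division, and the retinoblastoma family of pocket proteins holds them in check. The lens is built from a single sheet of epithelial cells at its front, which divide, and from fibre cells behind them. Fibre cells leave the cell cycle, elongate, fill with crystallins and lose their organelles. From late gestation to birth the dividing zone becomes a smaller share of the organ as fibre mass grows, and levels of proliferation genes in whole lenses decline. A fall of a gene in bulk lens RNA cannot tell fewer cells of a type from less RNA per cell.

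All values are log2 levels of 1 probe set per gene, namely the one with the highest mean over the 20 arrays, and 11859 genes passed a filter on low signal. A gene was called when its adjusted p in limma, Benjamini-Hochberg over all genes tested, was below 0.05. A change is given with its standard error from limma, and a group mean with its SD (n = 5). P-values measure the spread between mice whose litters are not given. Per-array values are listed in the order of the replicate numbers, which are 17, 18, 19, 21 and 22 for knockout P0, 10, 11, 12, 13 and 15 for control E17.5, and 1, 5, 6, 7 and 8 for control P0.

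The newborn knockout arrays were not alike among themselves. Replicates 17, 18 and 19 had a median absolute difference of 0.096, 0.139 and 0.101 from the mean of the other 4 arrays of their group. Replicates 21 and 22 lay at 0.146 and 0.157, and replicate 22 was nearer to the mean of the knockout E17.5 arrays (0.140) than to its own group. Control arrays lay 0.070 to 0.102 from their own groups. From the control E17.5 mean the knockout P0 arrays differed by a median of 0.233, 0.261, 0.243, 0.195 and 0.160. From the control P0 mean they differed by 0.205, 0.249, 0.213, 0.172 and 0.177. Replicates 17, 18, 19 and 21 were thus nearer to controls of their own stage, and replicate 22 was nearer to the younger controls. The control arrays of one stage lay 0.140 to 0.182 from the mean of the other stage, so 4 of the 5 knockout P0 arrays were farther from control E17.5 than any control P0 array was. Correlation across genes gave another order. Each of the 5 knockout arrays had a slightly higher r with control E17.5 (0.960 to 0.982) than with control P0 (0.954 to 0.977). These are descriptions across genes, which are not independent replicates.

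**Figure D1:**
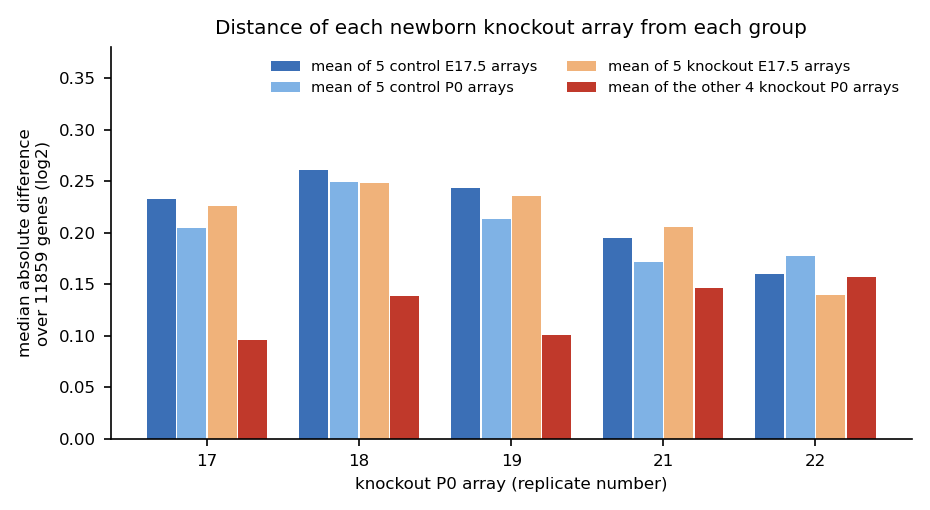
Bars give, for each of the 5 knockout P0 arrays (x axis, replicate number), the median absolute log2 difference over 11859 genes from the mean of each group (y axis, from 0). Own-group bars of replicates 17, 18 and 19 are the shortest, at 0.096 to 0.139, while replicate 22 lies at 0.157 from its own group and at 0.140 from knockout E17.5.

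The depth of an array is not a count, and 5 arrays a group limit the precision. Array medians lay between 5.05 and 5.25. For Gapdh, the log2 signal of 5' probes minus that of 3' probes, which drops where RNA is broken, was 0.177 ± 0.018 in knockout P0 and -0.036 ± 0.015 in control E17.5. This difference of 0.213 gave an exact two-sided permutation p of 0.00794, the smallest that 5 arrays against 5 allow, and an adjusted p of 0.0238 over 3 such properties. The actin 5' minus 3' signal differed by 0.113 and the 18S ribosomal RNA signal by 0.516 (exact permutation p = 0.0635 and 0.0556, adjusted p = 0.0635 for each). What these differences did to the gene values was not tested. The labels give the cell type as epithelial, but whole lenses were dissected. Crystallins, the defining products of fibre cells, averaged 14.18 to 14.26 in control E17.5 and 14.42 to 14.49 in knockout P0 arrays, near the highest value of any probe set.

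Of the targeted genes, E2f1 read 7.86, 7.89, 7.66, 7.91 and 7.62 in knockout P0 and 7.15 to 7.24 in control E17.5. Its level was higher by 0.58 ± 0.08 (adjusted p = 7.81e-05), and no knockout P0 array overlapped any of the 10 control arrays. The knockout E17.5 mean of E2f1 was 7.81. E2f3 read 7.85, 7.83, 7.84, 7.99 and 8.22 against 8.33 to 8.60, and was lower by 0.51 ± 0.09 (adjusted p = 0.000541). Control P0 lenses had about the same E2f3 level, 8.01 ± 0.09, and a second E2f3 probe set at a lower level differed by 0.14 in the other direction. With the mean of its probe sets E2f3 fell by 0.19 and was not called (adjusted p = 0.0864). E2f2, absent from both genotypes as a functional gene, was at 6.31 ± 0.10 in control E17.5 and 6.21 ± 0.11 in knockout P0 (adjusted p = 0.249). Where the probes lie relative to the deleted parts of these genes was not stated in what was read here, so these values do not check the labels.

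Over all genes, 4455 of 11859 (37.6%) were called between knockout P0 and control E17.5. Of these, 1625 (13.7%) were higher and 2830 (23.9%) lower in the knockout. At least 2-fold, 181 were higher and 82 lower. The 5 arrays of each group did not overlap for 1185 genes higher in the knockout (9.99%) and 2215 genes lower (18.7%). To ask where the knockout P0 lens was like the younger control, a bound of 0.5 on the log2 scale (1.41-fold) was set. For 6130 genes (51.7%) no change was called and the 95% interval of the difference lay inside that bound. Another 1274 genes (10.7%) were not called with an interval that reached past the bound, and they are left undecided. The median change was -0.04. Of the genes tested, 232 passed the filter only with the knockout P0 arrays, and 99 of these were called higher. Without them 1526 of 11627 were called higher (13.1%). Leaving out replicates 21 and 22, 1932 genes were called higher and 3080 lower, and without replicate 22 alone 1797 and 3061. With the signal of retina genes as a covariate, the counts were 1108 and 2419.

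For scale, control lenses from E17.5 to birth gave 583 genes called higher (4.92%) and 1463 called lower (12.3%). The first count fell to 388 without control E17.5 replicate 12, and to 386 and 375 without control P0 replicates 6 and 7. Knockout P0 against control P0 gave 2032 called higher (17.1%) and 2048 called lower (17.3%), and 535 and 662 with the retina covariate. These comparisons share arrays with the main one, so their values are set side by side and no overlap between them is counted.

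The plot of calls by gene list shows that the lists fell into different patterns. Replication genes were mostly not called or higher, cholesterol genes mostly lower, crystallins mostly within the bound, and pigment cell genes mostly higher.

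**Figure D2:**
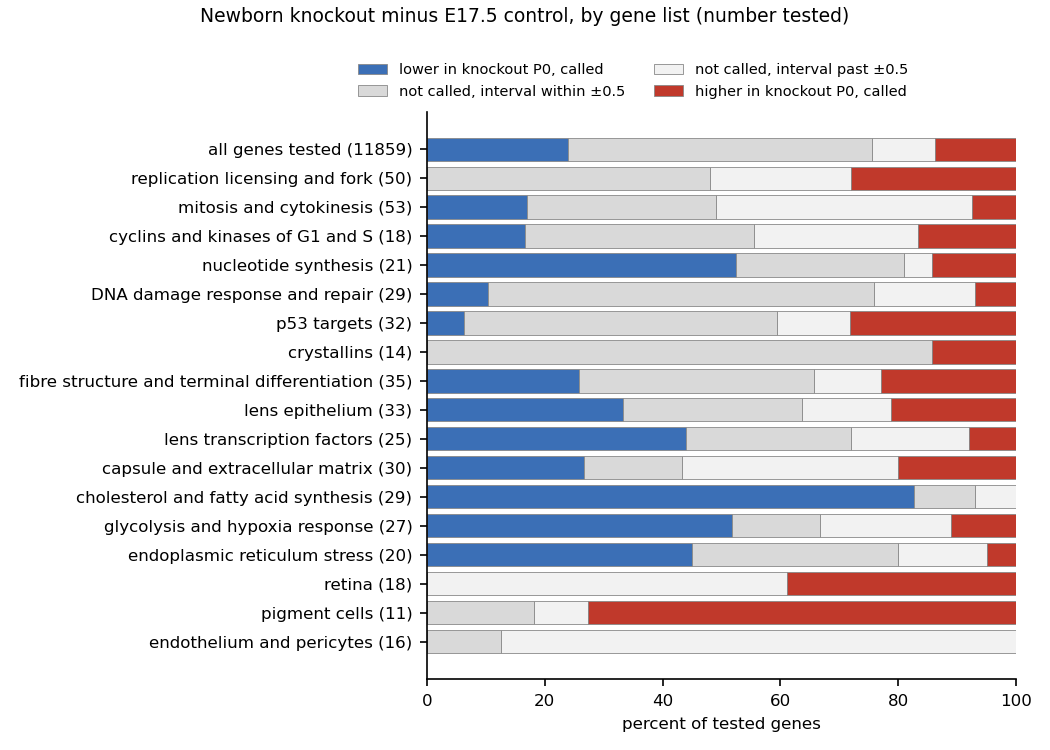
Each bar divides the tested genes of a list (number in brackets) into those called lower in knockout P0 than in control E17.5, those not called with the interval within or past ±0.5 log2, and those called higher (x axis, percent). Over all 11859 genes 23.9% were called lower and 13.7% higher, while the cholesterol list has 24 of 29 lower and the crystallin list none lower.

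Most genes of DNA replication were not called lower or higher than in the younger control, and those called were higher in the main fit. Of 50 genes of origin licensing and the replication fork, 14 were called higher, 0 lower, and 24 were within the bound, with a median change of 0.05. At an unadjusted limma p below 0.05, 17 were higher and 2 lower, and array weights called 8 lower. With the retina covariate 7 were called higher and 10 lower (median -0.06), which turns the direction, and 12 of the 50 were undecided in the main fit. In control lenses 35 of these 50 fell by birth (median -0.56) and 1 rose. Against control P0, 41 were higher in the knockout and 1 was lower (median 0.61). Per array, the list's median deviation from the control E17.5 mean was -0.03 to 0.20 in knockout P0 and -0.66 to -0.49 in control P0, with no overlap. The count of 14 was 9 without knockout P0 replicate 17, 18 or 19, and 12, with 2 called lower, without replicates 21 and 22. Without control replicate 10 or knockout replicate 21 there were also 2 called lower.

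Rpa2, a subunit of the protein that coats single-stranded DNA, rose most within that list. It read 8.21, 8.59, 8.23, 8.25 and 8.28 in knockout P0 and 7.18, 7.35, 7.37, 7.52 and 7.24 in control E17.5. All 5 knockout arrays lay above all 10 control arrays, and the change was 0.98 ± 0.13 (1.97-fold, adjusted p = 2.37e-05). Control lenses kept 7.27 ± 0.04 at birth, so the level belonged to neither control stage. Knockout E17.5 lenses already had a mean of 8.40. Dbf4, the activating subunit of the kinase that fires origins, read 8.89, 8.66, 8.80, 8.49 and 8.59 against 7.99 to 8.26 and rose by 0.56 ± 0.09 (adjusted p = 0.000186). Its control P0 mean was 8.15 ± 0.13, again at the level of the younger lens.

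Mcm6, a subunit of the replicative helicase, shows the other pattern. It differed by -0.15 between knockout P0 and control E17.5 (not called, interval past the bound), while control lenses dropped by 1.05 to birth. The promoters of the list were searched for 4 DNA words of the kind that E2F proteins bind, TTTCCCGC, TTTGGCGC, TTTCGCGC and TTTGCCGC, on both strands. The windows ran from 250 bases before to 50 after the start, in RefSeq sequence of GRCm38.p6. A match is a description and not a bound site. Of 41 genes of the replication list with a window, 15 held a word (36.6%), against 399 of 9603 tested genes (4.15%) and 626 of all 27025 windows (2.32%). By call, 53 of 1306 genes called higher (4.06%), 87 of 2337 called lower (3.72%) and 259 of 5960 not called (4.35%) held one. Within the replication list the word stood in 14 of 31 genes not called (45.2%) and in 1 of 10 called higher. The mitosis list had it in 4 of 45 (8.89%), the cholesterol list in 1 of 22 (4.55%) and the crystallins in 0 of 13.

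In 5 of the 15 genes the word lay within the 120 bases before the start. These stretches are shown, 5' to 3' on the gene's strand, because they are the sequence that sets the replication list apart from the other promoters in this search. Capitals mark the words, which overlap in the first run of Mcm6.
Mcm6, chr1:128359706-128359825, minus strand: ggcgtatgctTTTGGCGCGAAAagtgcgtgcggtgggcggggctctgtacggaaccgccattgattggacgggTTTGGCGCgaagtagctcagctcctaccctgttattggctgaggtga
Gins3, chr8:95633439-95633558, plus strand: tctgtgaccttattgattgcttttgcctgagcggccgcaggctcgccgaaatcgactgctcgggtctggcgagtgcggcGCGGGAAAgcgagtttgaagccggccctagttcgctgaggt
Rfc3, chr5:151651209-151651328, minus strand: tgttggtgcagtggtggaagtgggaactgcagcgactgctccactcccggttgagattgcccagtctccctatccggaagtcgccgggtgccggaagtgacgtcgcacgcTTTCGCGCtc
Orc1, chr4:108579334-108579453, plus strand: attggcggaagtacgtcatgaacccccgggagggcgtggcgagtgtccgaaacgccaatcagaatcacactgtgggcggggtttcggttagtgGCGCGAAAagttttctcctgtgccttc
Orc3, chr4:34614943-34615062, minus strand: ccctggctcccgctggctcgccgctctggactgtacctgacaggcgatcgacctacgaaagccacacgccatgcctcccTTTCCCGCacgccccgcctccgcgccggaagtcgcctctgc
Rfc3, a subunit of the clamp loader, was the only one of these 5 called in the main comparison, at 0.50. Gins3, of the helicase complex, differed by -0.12, and Orc1 and Orc3, of the origin recognition complex, by 0.06 and 0.04. In control lenses the changes to birth were -1.05 for Mcm6, -0.41 for Gins3, -0.18 for Rfc3, -0.17 for Orc1 and -0.16 for Orc3.

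In the main fit, genes of mitosis were mostly not called against the younger control. Of 53 genes tested, 17 were within the bound, 23 undecided, 9 called lower and 4 higher, with a median change of -0.23. Over all genes 23.9% were called lower and 13.7% higher, so neither count stood above the background in this fit. The count of lower genes depended on the setting. With only the arrays compared it was 18, beside 3242 of 11859 over all genes. Array weights gave 25, beside 4310 over all genes, and the retina covariate gave 16, beside 2419. By group means 42 of the 53 were lower and 11 higher. Control lenses had 48 of the 53 lower at birth (median -0.95), and knockout P0 lenses had 47 higher than control P0 (median 0.71). Per array the list stood at -0.37 to -0.06 in knockout P0 and at -1.19 to -0.49 in control P0. The count of 9 was 5 without control E17.5 replicate 11, 4 without control replicates 12, 13 or 15 or knockout replicate 17, 3 without knockout replicate 19, and 10 without replicates 21 and 22.

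Aurkb, the kinase of the chromosomal passenger complex, read 5.41, 5.41, 5.42, 5.87 and 5.88 in knockout P0 and 5.93 to 6.63 in control E17.5. It fell by 0.68 ± 0.19 (adjusted p = 0.00955), and control P0 was lower still at 4.93 ± 0.40. Espl1, the protease that separates sister chromatids, fell by 0.42 ± 0.11 (adjusted p = 0.00672) to 6.41 ± 0.18, the same mean as control P0. The 4 genes called higher were Kif4 (0.34), Mad2l1 (0.47), Cenpw (0.68) and Pttg1 (1.35), and 2 were called without control replicate 10 or 15 or knockout replicate 17, 18 or 19. Mad2l1, of the spindle checkpoint, read 8.13 to 8.42 in knockout P0, above all control arrays (adjusted p = 0.0133). Pttg1, the securin that restrains that protease, read 10.25, 10.16, 10.18, 10.90 and 10.21 against 8.52, 8.56, 10.29, 8.88 and 8.68. Control replicate 12 overlapped the knockout range, and the change was 1.35 ± 0.38 (adjusted p = 0.00871). Other Pttg1 probe sets differed by -0.06 and 0.64.

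Of 18 G1 and S phase regulators tested, Mnat1, Ccnh and Cdk6 were called higher, Skp2, Ccna2 and Ccne2 lower, and 7 were within the bound. That is 16.7% in each direction, against 13.7% higher and 23.9% lower over all genes, so neither count stood far above the background. Cdk6, a D-cyclin partner, rose by 0.66 ± 0.17 (adjusted p = 0.00489) and its 8.0 to 8.37 lay above every control array. Skp2, which targets the CDK inhibitor p27 for destruction, fell by 0.84 ± 0.17 (adjusted p = 0.000793) to 6.57 ± 0.25, near the control P0 mean of 6.41 ± 0.09. Ccne2, a cyclin of S phase entry, stood between the control stages, at 5.46 ± 0.12 against 5.79 ± 0.19 at E17.5 and 4.97 ± 0.07 at birth. Ccnh changed by 0.18 ± 0.06 (adjusted p = 0.0219), and by -0.01 with the mean of its probe sets.

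Nucleotide synthesis, which feeds replication, did not follow the replication list. Of 21 genes 11 were called lower, 3 higher and 6 were within the bound (median -0.30). Controls had 15 of the 21 lower at birth (median -0.47). Shmt2, a mitochondrial folate enzyme, read 8.59, 8.69, 8.43, 8.25 and 8.41 against 8.78 to 9.09 and fell by 0.50 ± 0.10 (adjusted p = 0.00129), with control P0 at 8.29 ± 0.10. Cad, the enzyme that starts pyrimidine synthesis, fell by 0.60 ± 0.11 (adjusted p = 0.000337). The genes called higher were Paics, Umps and Shmt1. Paics, of purine synthesis, read 13.16 to 13.37 against 12.70 to 12.82, above all control arrays, with a change of 0.46 ± 0.05 (adjusted p = 1.36e-05). Umps, which completes pyrimidine synthesis, rose by 0.57 ± 0.10 (adjusted p = 0.000495).

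Among the E2F, DP and pocket protein genes, E2f7, E2f5, E2f6, E2f3 and E2f8 were called lower and Rbl2, Tfdp2 and E2f1 higher, of 13 tested. E2f5, a repressor-type member, read 7.99, 7.75, 7.94, 8.0 and 8.39 against 8.67 to 8.87. It fell by 0.73 ± 0.09 (adjusted p = 2.65e-05) and lay below all 10 control arrays. E2f6, which represses without pocket proteins, fell by 0.61 ± 0.10 (adjusted p = 0.00016) and also lay below all control arrays. Rbl2, the pocket protein p130, rose by 0.38 ± 0.10 (adjusted p = 0.00514), and replicate 21 at 6.49 overlapped the controls.

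CDK inhibitors divided in the same way. Cdkn1a, the p53-induced inhibitor p21, read 8.41, 8.48 and 8.06 in replicates 17, 18 and 19 but 6.15 and 6.90 in replicates 21 and 22, against 5.59 to 6.24 in control E17.5. The change was 1.66 ± 0.46 (3.16-fold, adjusted p = 0.00821), and 2.37 without replicates 21 and 22. Control P0 stood at 5.74 ± 0.15, so high Cdkn1a belonged to neither control stage. Cdkn1b, Cdkn1c and Cdkn2d were called lower, of 6 tested. Cdkn1b, which encodes p27, fell by 0.62 ± 0.19 (adjusted p = 0.0178), and its adjusted p was 0.0578 without knockout replicate 18, 0.0557 without replicate 19 and 0.0508 with the retina covariate.

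Other p53 target genes followed the same arrays. Of 32 tested, 9 were called higher, 2 lower and 17 within the bound (median 0.15), and 15 were called higher without replicates 21 and 22. Phlda3 read 8.67, 8.72, 8.55, 6.74 and 7.57 against 6.29 to 6.62, a change of 1.60 ± 0.32 (adjusted p = 0.000963). Ccng1, cyclin G1, rose by 0.75 ± 0.15 (adjusted p = 0.00109). Ptp4a3 and Ddit4 fell, by 0.50 ± 0.12 (adjusted p = 0.00407) and 0.67 ± 0.18 (adjusted p = 0.00807). Ddit4 lost its call without replicates 21 and 22 (adjusted p = 0.0867). In control lenses 1 of the 32 rose and 3 fell by birth. Per array the list's median deviation from the control E17.5 mean was -0.00 to 0.31 in knockout E17.5 and 0.01 to 0.30 in knockout P0.

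DNA damage and repair genes stayed near the younger level, with 19 of 29 within the bound, 2 called higher and 3 lower. Control lenses had 12 of the 29 lower at birth (median -0.31). Exo1, a repair nuclease, fell by 0.78 ± 0.18 (adjusted p = 0.00271) to 4.95 ± 0.23, between 5.73 ± 0.20 at E17.5 and 4.35 ± 0.35 at birth in controls. Trp53bp1, which marks double-strand breaks, fell by 0.48 ± 0.07 (adjusted p = 6.61e-05), below all control arrays, and Tdp1 was lower by 0.21. The genes called higher were Etaa1 (0.33) and Fanca (0.25). Etaa1 was not called without control replicate 10 or knockout replicates 17 or 22 (adjusted p = 0.0737, 0.0786 and 0.0605).

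The cell death list held 25 tested genes, of which Hrk, Birc7 and Fas were called higher and Bmf, Bak1 and Bid lower, with 16 within the bound. Over all genes 13.7% were called higher and 23.9% lower, so neither count stands above the background. Fas, a death receptor, read 7.44, 7.43, 7.57, 6.31 and 6.64 against 5.79 to 6.37 (change 1.03 ± 0.24, adjusted p = 0.00287). Birc7, livin, which lens fibres express, rose by 0.50 ± 0.13 (adjusted p = 0.00484) to the level of control P0, 9.74 ± 0.05. Bak1, a pore-forming effector, and Bid, its activator, fell by 0.60 ± 0.10 and 0.60 ± 0.12 (adjusted p = 0.000262 and 0.000735).

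**Figure D3:**
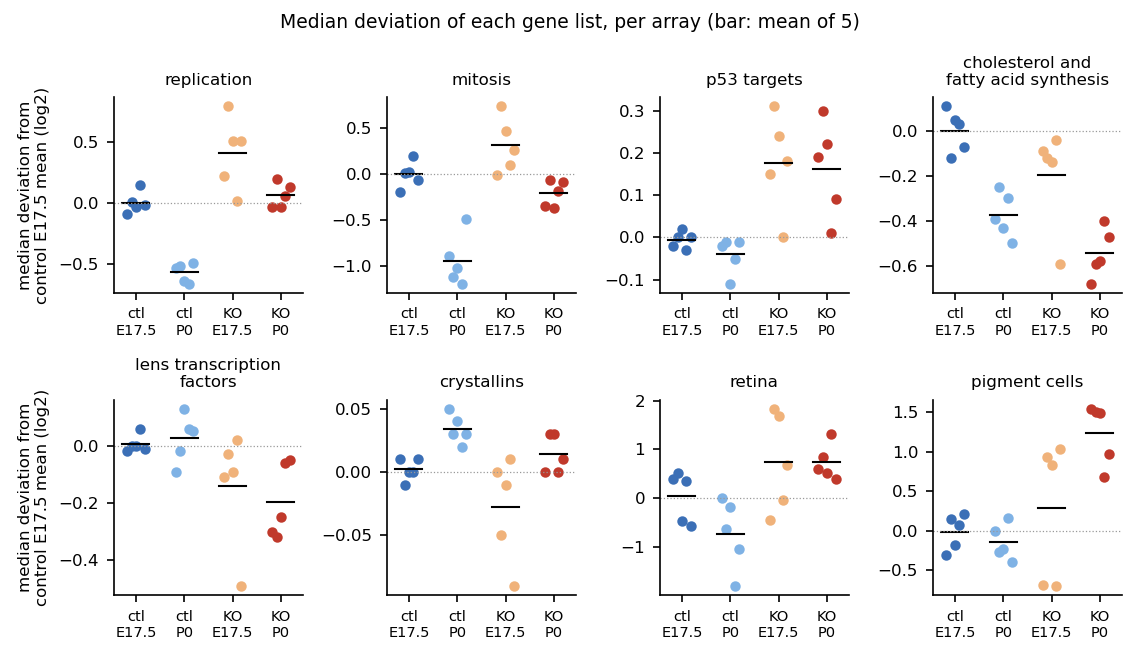
Points give, per array, the median deviation of a list's tested genes from the control E17.5 mean (y axis, log2, scale differs by panel), and bars give the mean of 5 arrays in each of the 4 groups (x axis, ctl control, KO knockout). The replication list lies at -0.66 to -0.49 in control P0 and at -0.03 to 0.20 in knockout P0, and the pigment cell list lies at 0.68 to 1.55 in knockout P0.

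The genes that changed most between control E17.5 and control P0 show where the newborn knockout stood on the path of control lenses. These 12 were chosen by the control change, so their values are a description with no test. Crybb2, beta-B2 crystallin, rises late in lens development. It read 11.15, 10.61, 10.87, 11.03 and 11.28 in control E17.5 and 13.40 to 13.74 in control P0. In knockout P0 it read 14.13, 13.91, 14.08, 13.40 and 13.82, the newborn level. The other 5 genes that rose in controls stood below every control P0 mean in the knockout, near the E17.5 level or, for Col4a4, below it. For some of them the call against control E17.5 depended on the setting. Clic5 was called higher with the retina covariate (0.67, limma adjusted p = 0.0298). Col4a3 was called lower with array weights (-0.48, limma adjusted p = 0.0111), and Col4a4 was called lower in 4 of 22 settings.

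Col4a3, a collagen IV chain of the mature lens capsule, was at 5.76 ± 0.27 in control E17.5 and 7.66 ± 0.22 in control P0. Its values in knockout P0 were 4.99, 5.31, 5.52, 6.09 and 5.51, all below the lowest control P0 array at 7.38. Col4a4, its partner chain, went from 7.71 ± 0.45 to 9.42 ± 0.27 in controls, and the knockout P0 mean was 6.76 ± 0.77. Clic5, a chloride channel family protein tied to the actin cytoskeleton, went from 5.17 ± 0.38 to 7.18 ± 0.33, and the knockout stood at 5.10 to 5.76. Abi3bp, an extracellular matrix protein, went from 5.20 ± 0.29 to 6.82 ± 0.40, with the knockout at 4.89 to 5.96. Alb, albumin, went from 4.39 ± 0.30 to 6.84 ± 1.27, and the knockout read 4.07 to 4.64.

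Of the 6 control falls, 5 were not called between knockout P0 and control E17.5 in the main fit. This depended on the retina covariate for 3 of them, and on the arrays fitted for Cep55. Cep55, needed for the last step of cell division, was at 6.41 ± 0.23 in control E17.5 and 4.52 ± 0.75 in control P0, and read 5.95, 6.04, 5.88, 6.08 and 6.41 in knockout P0. Ube2c, which feeds the anaphase-promoting complex, went from 8.07 ± 0.17 to 6.43 ± 0.57 in controls, and the knockout read 7.52 to 8.17. Sox11, a factor of progenitor cells, went from 8.05 ± 0.55 to 6.41 ± 0.73, with the knockout at 7.89 to 8.88. With the retina covariate its knockout P0 minus control E17.5 change turned from 0.18 to -0.73, and the limma fit called it lower (adjusted p = 0.000459). Atoh7 went from -0.45 to -1.59 and Sfrp2 from -0.48 to -1.57, also called lower by limma (adjusted p = 2.34e-05 and 0.00026). Atoh7 and Sfrp2 are themselves part of the mean that forms the covariate, so these calls are no support. Cep55 went from -0.33 to -0.57 with the covariate and was not called (adjusted p = 0.12). With only the arrays compared, Cep55 was called lower (-0.33, limma adjusted p = 0.0469). Atoh7 and Sfrp2, which belong to the retina list below, went from 8.44 ± 0.79 to 6.36 ± 0.76 and from 7.70 ± 0.50 to 5.49 ± 0.63, and the knockout means were 7.99 ± 0.68 and 7.22 ± 0.70. Alas2, a haem enzyme of red cells, was the exception. It went from 8.27 ± 0.76 to 6.49 ± 0.45 in controls and stood at 6.32, 7.80, 6.34, 6.32 and 6.34 in the knockout.

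**Figure D4:**
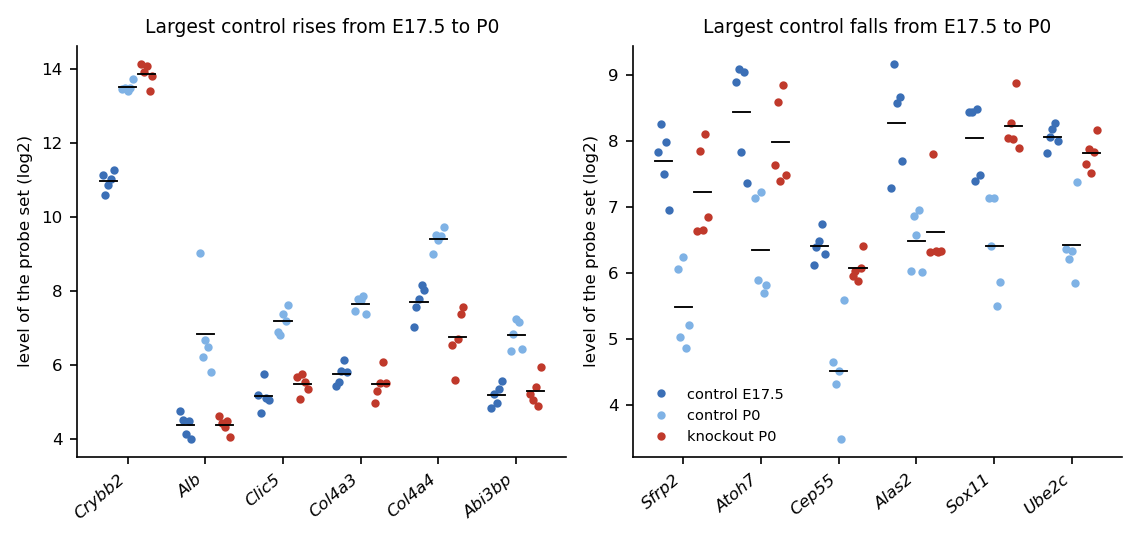
Points are arrays of control E17.5, control P0 and knockout P0 for the 6 largest control rises (left) and 6 largest control falls (right), as log2 levels with the mean of 5 as a bar. Knockout P0 points of Col4a3 (4.99 to 6.09) and Cep55 (5.88 to 6.41) lie with control E17.5, while those of Crybb2 (13.40 to 14.13) and 4 of 5 of Alas2 lie with control P0.

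Crystallins differed little in size between the groups, but the control stages did not overlap. Their mean was 14.18 to 14.26 in control E17.5, 14.45 to 14.48 in control P0 and 14.42 to 14.49 in knockout P0, a mean that includes Crybb2. Their median deviation from the control E17.5 mean was -0.01 to 0.01 in control E17.5, 0.02 to 0.05 in control P0 and 0.00 to 0.03 in knockout P0. By this median, knockout P0 overlapped both control stages. Of 14 tested, 12 were within the bound, Crybb2 and Crygs were called higher and 0 lower, also at an unadjusted limma p below 0.05. Crybb2 changed by 2.88 ± 0.34 (7.37-fold, adjusted p = 1.6e-05). Crygs, gamma-S crystallin, also a late crystallin, read 14.43 to 14.49 in knockout P0 and 14.11 to 14.28 in control E17.5, a change of 0.23 ± 0.05 (adjusted p = 0.0027), with control P0 at 14.43 ± 0.02. The other 12 had control E17.5 means of 13.96 (Cryga) to 14.99 (Crybb1), near the top of the scale, which leaves little room for a rise to show.

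Of 35 genes of fibre structure and terminal differentiation tested, 8 were called higher and 9 lower, with 14 within the bound. These shares of 22.9% and 25.7% stand beside 13.7% and 23.9% over all genes. In controls 5 rose and 2 fell. Caprin2, an RNA-binding protein of fibres, read 13.36, 13.25, 13.41, 12.99 and 13.10 against 12.46 to 12.71 (change 0.60 ± 0.08, adjusted p = 2.47e-05), above all controls. Slc2a1, a glucose transporter, read 10.87, 11.22, 10.89, 10.95 and 11.42 against 11.79 to 12.19, and fell by 1.0 ± 0.10 (2-fold, adjusted p = 4.45e-06), below all controls. Hmx1, a homeobox factor, fell by 0.44 ± 0.11 (adjusted p = 0.00347). The count of genes called higher was 5 without control replicate 12, and that of genes called lower was 5 with the retina covariate.

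Lens epithelium genes included some of the largest falls. Of 33 tested, 11 were called lower, 7 higher and 10 were within the bound, while in controls 1 fell and 3 rose by birth. Pdgfra, the receptor through which PDGF drives epithelial proliferation, read 5.90, 5.72, 5.72, 7.54 and 8.09 in knockout P0. In control E17.5 it read 8.69, 9.24, 9.41, 9.57 and 9.52, and in control P0 8.88 to 9.53. Its fall of 2.70 ± 0.43 (6.48-fold, adjusted p = 0.000161) was thus of a gene that control lenses held constant within 0.04. The knockout E17.5 mean of Pdgfra was 8.37, above every knockout P0 array. Replicates 17, 18 and 19 were lowest, and the change was -3.51 without replicates 21 and 22. Cdh1, E-cadherin of epithelial junctions, read 7.48, 7.13, 7.38, 7.42 and 8.58 against 8.61 to 9.77, and fell by 1.83 ± 0.32 (adjusted p = 0.000334).

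Igfbp5, a binding protein of insulin-like growth factors, read 9.54, 9.02, 8.55, 9.01 and 8.85 against 10.13 to 11.08. It fell by 1.75 ± 0.23 (adjusted p = 3.57e-05), and by 0.30 on the probe set used when sets that can match several transcripts were left out (adjusted p = 0.146). Aqp1, a water channel of the epithelium, rose by 1.62 ± 0.35 (adjusted p = 0.00153), and Id1, an inhibitor of differentiation, by 0.70 ± 0.12 (adjusted p = 0.000389). The 7 epithelial genes called higher were 4 without control replicate 10 and 4 with the retina covariate.

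Of 25 lens transcription factors, 11 were called lower, 2 higher and 7 within the bound (median -0.22). Control lenses changed little, with 2 higher and 2 lower by birth. Six3, a homeobox factor of lens specification, read 9.23, 9.18, 9.23, 9.39 and 9.43 against 9.60 to 9.74 and fell by 0.39 ± 0.07 (adjusted p = 0.000413), below all controls. Mafg, a small MAF protein, fell by 0.48 ± 0.10 (adjusted p = 0.00113), also below all controls. Foxe3, a forkhead factor of the lens epithelium and the largest fall of the list, chosen here after its value was seen, changed by -1.07. The count of 11 was 7 without knockout replicate 18 and 5 with the retina covariate, and the list's median was -0.41 without replicates 21 and 22.

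Prox1, which drives fibre elongation, and Tfap2b were the factors called higher. Prox1 read 9.99 to 10.14 in knockout P0, 9.28 to 9.44 in control E17.5 and 9.86 to 10.04 in control P0 (change 0.71 ± 0.08, adjusted p = 1.19e-05). Its other probe sets differed by -0.25 and -0.55, and the mean over its probe sets by -0.03, so the direction depends on the probe set. Tfap2b rose by 0.87 ± 0.33 (adjusted p = 0.0484), and its adjusted p was 0.0591 to 0.141 when control replicate 12 or 15 or knockout replicate 17, 18 or 21 was left out. With the retina covariate its change was 0.21 (limma adjusted p = 0.414), and it lost its call in 10 of 21 settings.

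The capsule and matrix list had 8 of 30 genes lower, 6 higher and 5 within the bound. These shares of 26.7% lower and 20% higher stand beside 23.9% and 13.7% over all genes. Genes called lower included a laminin and a collagen IV chain. Lama1, laminin alpha-1, read 7.35, 7.39, 7.31, 7.92 and 8.30 against 8.54 to 9.12, and fell by 1.20 ± 0.22 (adjusted p = 0.000515). Col4a2, of the collagen IV network laid down first, fell by 0.73 ± 0.14 (adjusted p = 0.000551) to 11.21 ± 0.33, while control P0 stood at 12.17 ± 0.13. All 3 chains of collagen IX, which is found in the vitreous and in cartilage, were called higher. Col9a3 read 8.61, 8.80, 8.41, 7.14 and 8.03 against 5.68 to 6.08 (change 2.28 ± 0.40, adjusted p = 0.000367) and Col9a2 rose by 1.29 ± 0.30 (adjusted p = 0.00267). The 6 called higher were 3 without knockout replicate 17, 18 or 19 and 2 with the retina covariate.

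Of 19 genes of the FGF and PDGF response, Etv4, Il17rd and Dusp4 were called higher and Pdgfra, Spry1 and Spred1 lower, with 7 within the bound. That is 15.8% in each direction, against 13.7% higher and 23.9% lower over all genes. Dusp4, a MAP kinase phosphatase, read 8.50, 8.39, 8.27, 7.40 and 7.86 against 6.60 to 7.30 and rose by 1.17 ± 0.19 (adjusted p = 0.000224), above all controls. Etv4, an ETS factor induced by FGF, rose by 0.54 ± 0.12 (adjusted p = 0.00202). Spry1, a feedback inhibitor, fell by 0.51 ± 0.15 (adjusted p = 0.0131).

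Of 23 Notch and BMP genes tested, 9 were called higher and 4 lower. The 4 lower were Notch3, Notch2, Nrarp and Jag1. The 9 higher were Bmp4, Bmp7, Bmpr1a, Smad6, Grem1, Id1, Id2, Id4 and the Notch ligand Dll1. Notch3, a receptor, read 7.38 to 7.90 against 7.97 to 8.60 and fell by 0.84 ± 0.15 (adjusted p = 0.000382). Nrarp, a Notch target, fell by 0.70 ± 0.14 (adjusted p = 0.000929) to 8.01 ± 0.32, the level of control P0 (8.05 ± 0.24). Id2, a BMP target, read 11.36, 11.09, 11.25, 11.24 and 11.14 against 10.11 to 10.24 (change 1.05 ± 0.14, adjusted p = 3.02e-05). Other Id2 probe sets differed by 0.46 and -0.94, and the mean of all was not called (0.19, adjusted p = 0.342). The 9 called higher were 5 without control replicate 10 and 4 with the retina covariate. Bmp4, a ligand also listed for the ciliary body, is given with that list.

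Genes of cholesterol and fatty acid synthesis were mostly lower. Of 29 tested genes 24 were called lower, 0 higher (1 at an unadjusted limma p below 0.05, and 1 with array weights) and 3 were within the bound (median -0.50). The count was 24 without any single array and without replicates 21 and 22 together. Control lenses had 17 of the 29 lower at birth (median -0.40), and knockout P0 against control P0 had 8 lower and 2 higher. Per array the list stood at -0.68 to -0.40 in knockout P0 and at -0.50 to -0.25 in control P0, so the groups overlapped. Dhcr7, which makes cholesterol from its last precursor, read 7.48, 7.27, 7.54, 7.83 and 7.66 against 8.28 to 8.64. Its fall of 0.96 ± 0.12 (adjusted p = 2.69e-05) took it below all controls. Fdft1, squalene synthase, fell by 0.84 ± 0.10 (adjusted p = 1.36e-05), with control P0 between at 9.55 ± 0.12.

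In the glycolysis and hypoxia list 14 of 27 genes were called lower and 3 higher (median -0.28), and controls had 5 in each direction. P4ha1, a collagen prolyl hydroxylase induced by hypoxia, fell by 0.81 ± 0.13 (adjusted p = 0.000131) to 9.52 ± 0.13, the newborn level (9.61 ± 0.27). Its second probe set differed by -0.05, with knockout P0 at 9.26, control E17.5 at 9.31 and control P0 at 8.79. The stage that P4ha1 resembled thus depends on the probe set. The 3 genes called higher were Pfkp, Ndrg1 and Aldoc. Ndrg1 and Aldoc, an aldolase, rose by 0.67 ± 0.11 and 0.75 ± 0.13 (adjusted p = 0.000157 and 0.000241) and stood at 11.96 ± 0.09 and 11.55 ± 0.12. In control P0 they were at 12.13 ± 0.08 and 11.66 ± 0.10, so for these genes the knockout lay at the newborn level.

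Endoplasmic reticulum stress genes were lower in 9 of 20 cases, with Dnajb9 (0.34) the only one called higher, and controls had 12 lower at birth. Creld2 and Pdia4, chaperones of that compartment, fell by 0.64 ± 0.10 and 0.54 ± 0.09 (adjusted p = 0.000124 and 0.000275). Creld2 stood at 7.44 ± 0.22, with control P0 at 7.42 ± 0.14. Heat shock chaperones of the cytosol were partly higher, 6 of 11 against 2 lower. Hspb1, a small heat shock protein, read 13.02, 13.67, 13.38, 11.62 and 12.36 against 10.73 to 11.20 (change 1.84 ± 0.29, adjusted p = 0.00015), and control P0 stood at 11.32 ± 0.05. Dnajb1 rose by 1.07 ± 0.14 (adjusted p = 2.54e-05), above all controls. Hspd1, the mitochondrial chaperonin, and Hsph1 were the 2 that fell, by 0.46 ± 0.08 and 0.48 ± 0.10 (adjusted p = 0.000367 and 0.000987).

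Of 22 antioxidant genes, 5 were called higher (22.7%) and 7 lower (31.8%), against 13.7% and 23.9% over all genes. Hmox1, haem oxygenase, read 12.46, 12.86, 12.85, 12.34 and 12.25 against 10.89 to 11.39 and rose by 1.44 ± 0.14 (adjusted p = 4.45e-06). Control P0 lenses were at 12.07 ± 0.16. Cat, catalase, fell by 0.60 ± 0.08 (adjusted p = 5.35e-05) and Keap1, the sensor of oxidative stress, by 0.57 ± 0.09 (adjusted p = 0.000124), each below all controls. A second Keap1 probe set differed by -0.03. Among fetal growth genes Hmga2, a chromatin protein of fetal cells, read 8.32, 8.42, 8.42, 9.33 and 10.14 against 10.04 to 10.87. Its fall of 1.71 ± 0.30 (adjusted p = 0.000355) set it apart from control P0 as well, at 10.50 ± 0.19. Gpc3 was the 1 gene called higher of that list (2 genes without control replicate 11 or 13 or knockout replicate 19 or 21) and 6 of 19 were lower, 3 without control replicates 11, 12 or 13 or knockout replicate 19.

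Among called genes whose 5 arrays of each group did not overlap, Mt1 and Galc rose most. Mt1, a metal-binding metallothionein, read 10.74, 11.01, 10.83, 8.44 and 10.40 in knockout P0 and 5.58 to 6.02 in control E17.5. Its change was 4.55 ± 0.65 (23.4-fold, adjusted p = 6.52e-05), control P0 stood at 5.73 ± 0.51, and its second probe set differed by 1.31. The knockout E17.5 mean of Mt1 was 9.82. Galc, a lysosomal galactosidase, read 8.51, 8.0, 8.36, 8.48 and 7.84 against 3.35 to 4.12 (change 4.54 ± 0.87, adjusted p = 0.000663). All 5 control E17.5 arrays lay below their array medians, so no fold is given. Control P0 arrays of Galc were spread from 3.92 to 7.89, and its other probe sets differed by -0.27 and 0.04.

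Next in size after Crybb2 were Optc, Scn1a, Reln, Col9a3, Pla2g5, Camk2n1 and Stambpl1. Optc, opticin of the vitreous, read 8.60 to 10.28 in knockout P0 against 6.54 to 7.79 (change 2.62 ± 0.53, adjusted p = 0.00108). Scn1a, a neuronal sodium channel, was above the array median in 0 of 10 control arrays and in 4 of 5 knockout P0 arrays, so it passed the filter only through knockout arrays, and its mean of 6.56 against 4.24 is given with no test. Reln, the secreted protein reelin, rose by 2.30 ± 0.54 (adjusted p = 0.00296). Pla2g5, a secreted phospholipase, and Camk2n1, an inhibitor of CaM kinase II, each rose by 2.25 (adjusted p = 0.00112 and 0.00042). Stambpl1, a deubiquitinase, read 10.17, 10.21, 10.38, 8.36 and 9.31 against 7.33 to 7.77 and rose by 2.17 ± 0.30 (adjusted p = 5.17e-05). Replicate 21 was the lowest of the 5 knockout arrays for Mt1, Optc, Scn1a, Reln, Col9a3, Pla2g5, Camk2n1 and Stambpl1.

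Besides Pdgfra, Cdh1 and Igfbp5, the largest falls among called genes without overlap were of Cep128, Ccbe1, Olfml3, Matn2, Scn11a, Arsi and Cntn6. Cep128, of the centriole, read 6.0, 6.15, 6.09, 6.16 and 8.07 against 8.72 to 9.21 (change -2.48 ± 0.31, adjusted p = 2.02e-05), with replicate 22 high. Ccbe1, a secreted factor of lymphatic vessel growth, fell by 2.11 ± 0.35 (adjusted p = 0.000257), and Olfml3, a secreted olfactomedin protein, fell by 1.98 ± 0.43 (adjusted p = 0.00182). Matn2, a matrix protein, read 3.99, 3.96, 4.21, 4.46 and 4.45 against 5.43 to 6.39 and fell by 1.77 ± 0.25 (adjusted p = 6.82e-05). All 5 knockout P0 values of Matn2 lay below the array medians. Scn11a, a sodium channel, and Arsi, a sulfatase, each fell by 1.73 (adjusted p = 0.000146 and 0.00114), and Cntn6, a contactin of neural adhesion, by 1.7 ± 0.27 (adjusted p = 0.00014). For Pdgfra, Ccbe1, Arsi and Cntn6, replicates 21 and 22 lay nearer to the controls than replicates 17, 18 and 19 did.

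**Figure D5:**
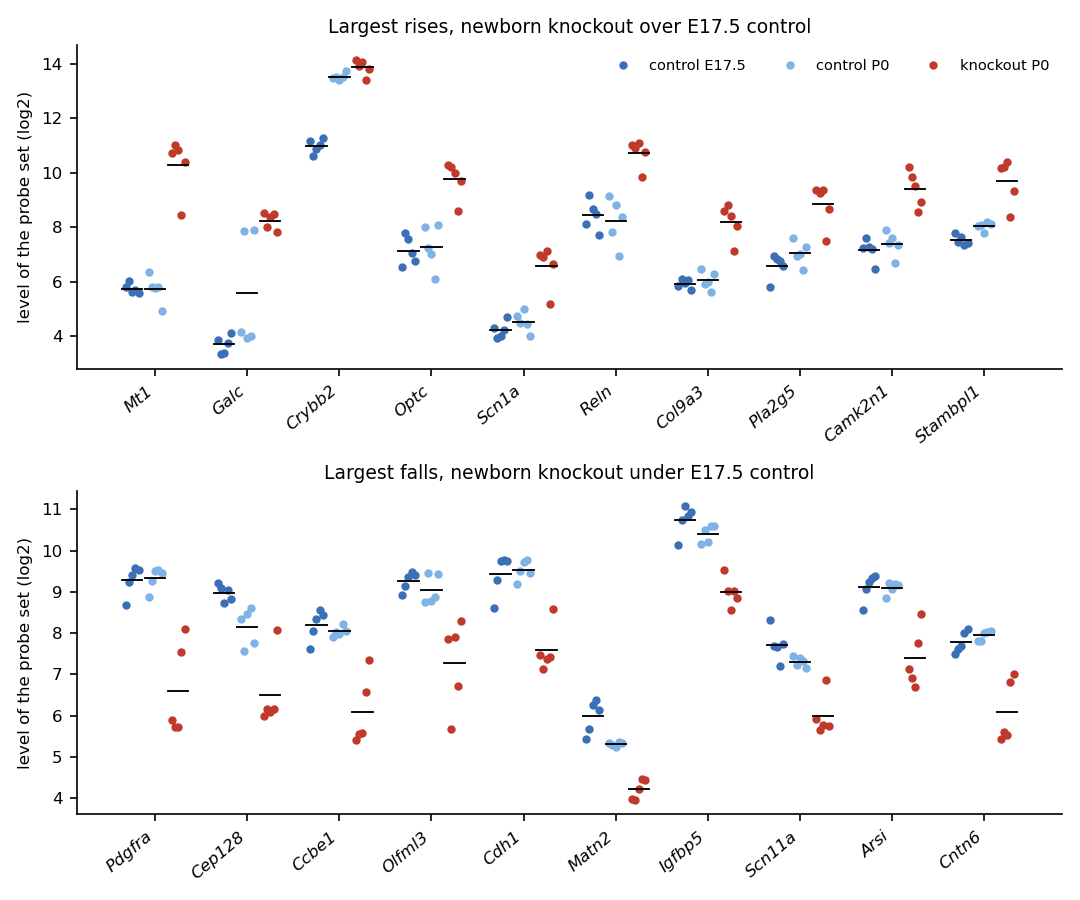
Points are arrays of control E17.5, control P0 and knockout P0 (log2 level, mean of 5 as a bar) for the 10 largest rises (top) and 10 largest falls (bottom) of knockout P0 against control E17.5 among called genes whose groups did not overlap. Crybb2 is at the control P0 level in the knockout, whereas Mt1 (8.44 to 11.01) and Pdgfra (5.72 to 8.09) lie apart from both control stages.

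A further comparison asked where the newborn knockout left the range of both control stages. Set against the mean of both control stages, knockout P0 lenses differed in 4715 genes (39.8%), 2013 higher and 2702 lower. For 655 genes (5.52%) all 5 knockout P0 arrays lay above all 10 control arrays, and 632 of these were called. For 916 genes (7.72%) all 5 lay below, and 894 were called. The calls rest on the same arrays that set these genes apart, so they add no support. The count above the controls includes genes that passed the filter only with the knockout P0 arrays, such as Rrh, Tox and Gabra3. It was not made without them. The knockout E17.5 arrays were not part of these counts, so a gene in them need not be particular to the newborn knockout. With the retina covariate, 916 genes were called higher and 1619 lower against both stages.

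The genes farthest above all controls were Mt1, Rrh, Rlbp1, Cntn1, Lrrc4c, Pmel, Tox and Gabra3. Rrh, peropsin of the pigment epithelium, read 6.71, 7.0, 6.53, 6.88 and 6.34 in knockout P0, 4.31 to 5.13 in control E17.5 and 4.33 to 4.93 in control P0. Rrh, Tox and Gabra3 were above the array median in 0 of the 10 control arrays and passed the filter only with the knockout P0 arrays, so they are given with no test. Rlbp1, a retinaldehyde-binding protein of pigment epithelium and Müller glia, read 6.74, 6.91, 6.62, 6.55 and 6.71, with no control array above 5.36. Its change from the mean of both control stages was 1.74 (limma adjusted p = 0.000234), and from control E17.5 alone 1.61. Pmel, of the melanosome, read 9.87 to 10.75 against at most 9.01 at E17.5. Cntn1 and Lrrc4c, of neural adhesion, stood at 7.91 ± 0.26 and 7.26 ± 0.15, and Gabra3, a GABA receptor subunit, at 5.86 ± 0.13 against 4.78 ± 0.11. Tox, a nuclear factor, was at 6.05 ± 0.33 against 4.56 ± 0.26 in control E17.5.

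The genes farthest below all controls were Gm266, Matn2, Pdgfra, Igfbp5, Sall1, Naglu, Zfp365 and Pde4d. Gm266, a predicted gene, read 4.75, 4.85, 3.91, 4.88 and 4.50 in knockout P0, with 6.04 to 6.67 and 5.98 to 6.46 in the controls. Sall1, a zinc finger factor of organ development, read 7.54, 7.17, 7.51, 7.52 and 7.44, with 8.10 to 8.36 and 8.36 to 8.53 in the controls. Naglu, a lysosomal enzyme, was at 6.0 ± 0.12 against 6.84 ± 0.13, Zfp365 at 8.49 ± 0.42 against 9.66 ± 0.21, and Pde4d, a cAMP phosphodiesterase, at 7.22 ± 0.23 against 8.20 ± 0.14, the second value in each pair being control E17.5. In these 5 genes all knockout P0 arrays, replicates 21 and 22 included, lay below the controls by at least 0.55.

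Some markers of neighbouring eye tissues also differed, and a link to the genes above was not tested. Of 18 retina genes tested, 7 were called higher in knockout P0 than in control E17.5, 0 lower (also at an unadjusted limma p below 0.05) and 0 within the bound (median 0.71). The list's median deviation was 0.39 to 1.31 in knockout P0 (highest in replicate 21), -0.58 to 0.52 in control E17.5 and -1.81 to 0.01 in control P0, so the knockout and control E17.5 ranges overlapped. The count of 7 was 4 without control replicate 12 or 15 or knockout replicate 18. Nrl, the transcription factor of rod photoreceptors, read 6.04, 6.09, 5.73, 6.39 and 5.89 against 3.56 to 4.39. Nrl and Sag passed the filter only with the knockout P0 arrays and had to differ, so they are no support for the count, and 5 of the other 16 retina genes were called higher.

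Pigment cell genes were called higher in 8 of 11 cases, 0 lower, also at an unadjusted limma p below 0.05 (median 1.27). Their median deviation was 0.68 to 1.55 in knockout P0, -0.30 to 0.22 in control E17.5 and -0.39 to 0.16 in control P0, without overlap. Gpnmb, a melanosomal glycoprotein, read 6.87, 6.83, 6.81, 6.22 and 6.23 against 4.86 to 5.59 (change 1.27 ± 0.27, adjusted p = 0.00149). Mlana, another melanosome protein, rose by 1.68 ± 0.39 (adjusted p = 0.00259). Of 8 ciliary body and iris genes 5 were called higher, 3 without control replicate 10, 13 or 15 or knockout replicate 17, 19 or 22, and Foxc1 was lower by 0.33 (adjusted p = 0.045) but not called without control replicate 10, 11, 12 or 13 or knockout replicate 17, 18, 19 or 21. Bmp4 read 9.70, 9.44, 9.51, 8.29 and 9.49 against 6.49 to 8.13 (change 1.86 ± 0.44, adjusted p = 0.00329).

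With the mean signal of 23 retina genes as a covariate, the direction of the replication list turned, as given above, and the mitosis list had 16 genes lower. With the same covariate the cholesterol list had 23 lower, the pigment list 6 higher and the crystallins 3 higher. The part of these tissues in any other change was not tested beyond this covariate. By limma 0 of 11 macrophage genes, 0 of 16 endothelial and pericyte genes and 0 of 5 cornea and skin genes were called, and 10, 14 and 0 of them were undecided. At an unadjusted p below 0.05 these counts were 0, 2 (lower) and 0, and with array weights 1 (higher), 6 (lower) and 0 were called. The smallest adjusted p named for each list in the main fit was 0.205 for Cx3cr1 of macrophages, 0.062 for Flt1 of endothelium and 0.175 for Krt10 of skin. Flt1 was called lower in 4 of 22 settings. Its limma adjusted p was 0.00167 with only the arrays compared and 0.0007 without the knockout E17.5 arrays. By group means 15 of the 16 endothelial and pericyte genes were lower and 1 higher. The muscle gene Des was higher by 0.30 ± 0.09 (adjusted p = 0.016). Ckm, at a change of 0.28, passed the filter only with the knockout P0 arrays. The red cell genes Alas2 and Slc4a1 were lower by 1.65 ± 0.48 and 1.23 ± 0.33 (adjusted p = 0.0116 and 0.00692). Both stood near the control P0 level, and Alas2 had an adjusted p of 0.0521 without replicates 21 and 22.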

How the data were processed

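The table deposited by the authors holds a log2 level for every probe set on each array, a scale read from the values (1.72 to 15). The authors' normalization is not given in the sources used. The table has 45101 probe sets, of which 64 are controls, 34945 have 1 gene in the platform annotation, 932 several and 9160 none. 34741 symbols were updated by Entrez identifier through RefSeq (GRCm38.p6). For 18193 genes, 9010 of them with several probe sets, the one brightest on average was kept. Genes above the array median (50th percentile) in at least 5 arrays were tested, 11859 in all. No pair of arrays shared over 0.142% of its values.

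One mean per group was fitted over 20 arrays (16 residual degrees of freedom) with limma 3.58.1 (R 4.3.3, lmFit and eBayes, two-sided), with Benjamini-Hochberg adjustment over all genes tested. The fit was tested on simulated data. Intervals are 95%. The bound of 0.5 was also tried at 0.3 and 1.

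The members and the gene lists were chosen with earlier results of these data known. Named genes are the targeted genes, the 10 largest rises and falls without overlap, the 8 farthest above and below all controls, the 6 largest control changes each way, and up to 2 risen and 2 fallen genes of each list, or 1 where none passed. Sex-linked genes used to tell males from females were left out, since sex is not labelled. Promoter windows (250 bases before to 50 after the start) came from RefSeq, with the first entry of a symbol used. Alternatives were quantile normalization, median centring, other filters, the mean of probe sets, leaving out probe sets of the _s_at and _x_at types, fewer arrays, array weights, a trended robust fit, the mean of 23 retina genes as a covariate, and leaving out each array. Leaving out replicates 21 and 22 together, and a filter that ignores the knockout P0 arrays, were added after the data were seen.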

Additional observations from a re-analysis of the deposited data

Results flagged for a closer look

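In 252 groups of 5 arrays (126 named genes, knockout P0 and control E17.5), 23 held an array that lay far from the other 4 relative to the group's range, 16 of them in knockout P0. Chance flags about 1 in 20 groups. The values below are log2 levels of the array that stood apart.

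In knockout P0, replicate 21 stood apart for 9 genes. It was low for Mt1 (8.44), Scn1a (5.19), Reln (9.85), Trp53bp1 (9.70) and Bmp4 (8.29). It was high for Scn11a (6.87), Pttg1 (10.90), Ccnh (9.57) and Fdft1 (9.39). Replicate 22 was high for Cep128 (8.07) and Cdh1 (8.58), and low for Fanca (5.70) and P4ha1 (9.29). Replicate 18 was low for Sall1 (7.17) and high for Alas2 (7.80) and Rpa2 (8.59).

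In control E17.5, replicate 15 was high for Naglu (7.06) and low for Paics (12.70). Replicate 12 was high for Pttg1 (10.29) and Id1 (9.61). Replicate 13 was high for Cdkn2d (8.42) and Igf2bp3 (8.90), and replicate 10 was low for Etaa1 (5.79).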

How the results depend on the processing

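The cause of the shifts below was not tested. With array weights the main comparison called 2995 genes higher and 4310 lower, 3055 were higher against both control stages, control lenses had 1832 higher and 3256 lower at birth, and knockout against control P0 had 3124 and 3358. Mitosis then had 25 genes lower, and the fibre median was 0.10. Without the knockout E17.5 arrays the control change had 1046 higher and 2396 lower. With only the arrays compared, mitosis had 18 lower. A stricter filter (75th percentile), which tests fewer genes, gave 1003 higher, 1315 higher against both stages, 3471 within the bound, 4 mitosis genes lower, 3 retina genes higher, and medians of -0.28 (CDK inhibitors), -0.56 (capsule and matrix), 0.11 (cornea and skin), -0.13 (lens epithelium) and 0.17 (replication). No filter gave 11612 within the bound and medians of 0.05 (CDK inhibitors), 0.02 (FGF and PDGF) and -0.76 (red cells). A bound of 0.3 held 3185 genes.

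The retina covariate gave 916 higher and 1619 lower against both stages, 535 and 662 against control P0, 5 lens transcription factors lower, 16 mitosis genes lower, 7 replication and 3 retina genes higher, and medians of -0.14 (DNA damage), 0.03 (FGF and PDGF), -0.06 (cell death), 0.55 (ciliary body), -0.24 (fetal growth), -0.36 (lens transcription factors), -0.06 (replication) and 0.10 (retina). The covariate is made from the retina genes, so their own count and median with it are no test. Sox11, not called in the main fit, became -0.73 (limma adjusted p = 0.000459). The mean of probe sets turned Ccnh to -0.01 and Prox1 to -0.03, and gave medians of 0.10 (heat shock), 0.01 (antioxidants) and -0.16 (nucleotide synthesis). Without _s_at and _x_at sets the last was -0.17 and FGF and PDGF 0.05. Median centring gave crystallins -0.02. Without replicates 21 and 22 lens transcription factors were at -0.41.

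Leaving out 1 array gave 3 to 11 mitosis genes lower, 4 to 7 retina genes higher, 9 to 13 replication genes higher, 7 to 12 lens transcription factors lower, and 375 to 533 genes higher in control lenses at birth. Of 112 called named genes, 95 kept call and direction in every one of the 22 settings that held them. These counts did not leave out Scn1a, Rrh, Tox, Gabra3, Nrl and Ckm. Those genes passed the filter only with the knockout P0 arrays, so a kept call is no support for them. No paired analysis was possible because the groups share no replicate numbers.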
